A study of Mus musculus with 18 samples.

Results

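Genes of the cell division cycle were followed through lipochondrocytes, the fat-filled chondrocytes of the mouse ear, and through adipocytes. The 50 genes were taken by symbol from the 46983 genes of the deposited expression table, and each matched 1 row. They comprise 18 genes of DNA replication and S phase, 24 genes of G2 and mitosis, and 8 regulators of G1, the phase before S. RNA had been sequenced from lipochondrocytes of the ear cartilage plate at postnatal day 8 (P8), P10, P13, P21 and P33, and from inguinal fat adipocytes at P33, with 3 libraries in each group. Every group, adipocytes included, carries the label Wnt1-Cre2;TdTomato on a C57BL/6 background. This Cre marks derivatives of the neural crest. P8, P10 and P13 cells were freed with collagenase and sorted through a gate for high TdTomato, whereas for the later lipochondrocytes (P21, P33) and the adipocytes the fraction that floated on centrifugation was taken. Stage and isolation therefore cannot be told apart between P13 and P21 or between P8 and P33. Values are FPKM, which scale the fragments of a gene by its length and by the depth of the library, so levels may be compared between genes within a library. The values of a library summed to 880620 to 1245100 FPKM, so differences between libraries are also given after rescaling for some of the calls that rescaling changes.

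As background, a cell commits to division in G1, when D-type cyclins with CDK4 or CDK6 inactivate the retinoblastoma proteins and release E2F factors. E2F then drives the genes that license and copy DNA, and a later wave driven by B-MYB and FOXM1 supplies the cyclins, kinases and motors of mitosis. CDK inhibitors such as p21 and p18 restrain the first step. A cell that leaves the cycle shuts off both waves, whereas many replication proteins also serve DNA repair and are not lost altogether. Chondrocytes in growing cartilage divide and later stop, and white adipocytes are post-mitotic.

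Promoters of both waves can carry recognition letters. The upstream sequences of 5 of the genes are shown because their transcripts carry the stage difference described below. These sequences are examples, and not every gene of a list has such letters. They come from RefSeq on the build GRCm38.p6 and run 5′ to 3′ on the gene's strand up to the annotated start; bases inside the GENCODE gene were left out. For the replication genes, capitals mark E2F letters (TTTGGCGC, TTTCCCGC, TTTGCCGC or TTTCGCGC, on either strand, with overlapping matches merged). Mcm6 lies on the minus strand at chr1:128359706-128359955 and Mcm5 on the plus strand at chr8:75109259-75109508; both encode subunits of the MCM helicase that unwinds the replication fork.
Mcm6: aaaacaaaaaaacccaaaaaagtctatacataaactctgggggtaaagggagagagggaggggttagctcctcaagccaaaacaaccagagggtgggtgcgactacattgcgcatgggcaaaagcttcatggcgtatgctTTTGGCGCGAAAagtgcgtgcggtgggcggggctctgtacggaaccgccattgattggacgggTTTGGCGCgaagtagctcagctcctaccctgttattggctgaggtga
Mcm5: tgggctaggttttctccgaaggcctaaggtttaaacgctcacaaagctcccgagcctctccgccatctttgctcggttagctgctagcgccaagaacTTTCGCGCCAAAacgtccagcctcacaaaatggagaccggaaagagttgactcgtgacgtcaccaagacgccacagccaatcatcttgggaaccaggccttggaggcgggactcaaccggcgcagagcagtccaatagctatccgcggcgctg
For the mitosis genes, capitals mark the CHR element (TTTGAA or TTTAAA, on either strand) and the NF-Y element (CCAAT, on either strand). The windows are chr10:69352939-69353162 for Cdk1, the mitotic kinase, chr11:99024190-99024439 for Top2a, the topoisomerase that untangles chromosomes, and chr7:135716380-135716629 for Mki67, the coat protein of mitotic chromosomes known as Ki-67. All 3 lie on the minus strand.
Cdk1: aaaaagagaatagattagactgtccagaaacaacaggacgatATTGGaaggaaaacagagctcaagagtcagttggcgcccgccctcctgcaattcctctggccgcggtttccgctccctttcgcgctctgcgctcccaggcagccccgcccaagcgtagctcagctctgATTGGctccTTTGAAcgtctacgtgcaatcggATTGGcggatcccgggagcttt
Top2a: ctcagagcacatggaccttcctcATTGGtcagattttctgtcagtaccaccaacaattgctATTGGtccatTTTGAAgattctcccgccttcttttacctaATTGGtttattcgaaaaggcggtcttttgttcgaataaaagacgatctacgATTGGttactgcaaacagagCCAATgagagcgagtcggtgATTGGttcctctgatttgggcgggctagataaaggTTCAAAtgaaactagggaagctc
Mki67: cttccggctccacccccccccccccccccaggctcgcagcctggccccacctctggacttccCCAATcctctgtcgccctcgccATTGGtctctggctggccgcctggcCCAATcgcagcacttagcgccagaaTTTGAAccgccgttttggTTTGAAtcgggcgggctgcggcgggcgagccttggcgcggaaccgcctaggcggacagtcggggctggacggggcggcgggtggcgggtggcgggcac
Of the 50 genes, 39 had a RefSeq promoter window of 250 bases before to 50 bases after the start. A CHR element stood in the window of 17 of 19 mitosis genes and 6 of 15 replication genes. In promoters rather than genes, it stood in 90.0% of those of the mitosis genes, against 27.6% of all 32851 promoters. An NF-Y element was found in 17 of the 19 mitosis genes and 9 of the 15 replication genes. It was found in 41.1% of all genes with a window and in 42.4% of those that entered the tests below. E2F letters occurred in 6 of the 15 replication genes and in 1 of the 19 mitosis genes, which is Cdk1. Mcm6, shown above, had the most matches of the replication genes, and Rrm2, Tk1 and Mcm2 were among those with none. E2F letters occurred in 2.6% of all genes with a window and in 4.46% of those that entered the tests. These are matches of letters, which say nothing of binding in these cells.

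The libraries held 12461965 to 27640142 total reads, and no 2 libraries had identical values. Defining cartilage genes (9 genes, Col2a1 and Acan among them) summed to 16099 to 27322 FPKM in every lipochondrocyte library and to 1.28 to 2.26 FPKM in adipocytes. Matn1 of that list was listed at 0 in all P21 and P33 libraries. Adipocyte markers summed to at most 23.72 FPKM in lipochondrocytes, against at least 85178 FPKM in adipocytes, with Lep and Adrb3 at 0 at P21 and P33. Within the cartilage sum, Cytl1 and Mia carried most: Cytl1 averaged 18537 FPKM at P33 and 11243 FPKM at P8, whereas Col2a1, the main collagen of cartilage, averaged 223 FPKM at P33 and 5100 FPKM at P8 (adjusted p = 5e-11, limma). Of the 8 cartilage genes tested, 5 were called lower and 2 higher at P33 against P8, and 5 lower and 0 higher at P33 against P21. Among all genes tested, 12.8% were called lower and 35.5% higher at P33 against P8, and 7.17% lower and 2.87% higher at P33 against P21. A gene entered the tests when it reached 1 FPKM in at least 3 libraries, as 13815 genes did, and a call is an adjusted p below 0.05 in limma on log2(FPKM + 1). Of the 50 genes, 45 were tested: 17 of 18 for replication, 20 of 24 for mitosis and all 8 regulators. Cdc6, Mki67, Bub1, Cenpe and Kif11 stayed below the filter. Among the tested mitosis genes, 13 reached 1 FPKM only in P8 to P13 libraries and so entered through the groups where they are high. Where reads of a gene and its antisense neighbour overlap they cannot be told apart, since the strand setting of the quantification is not given.

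**Figure D1:**
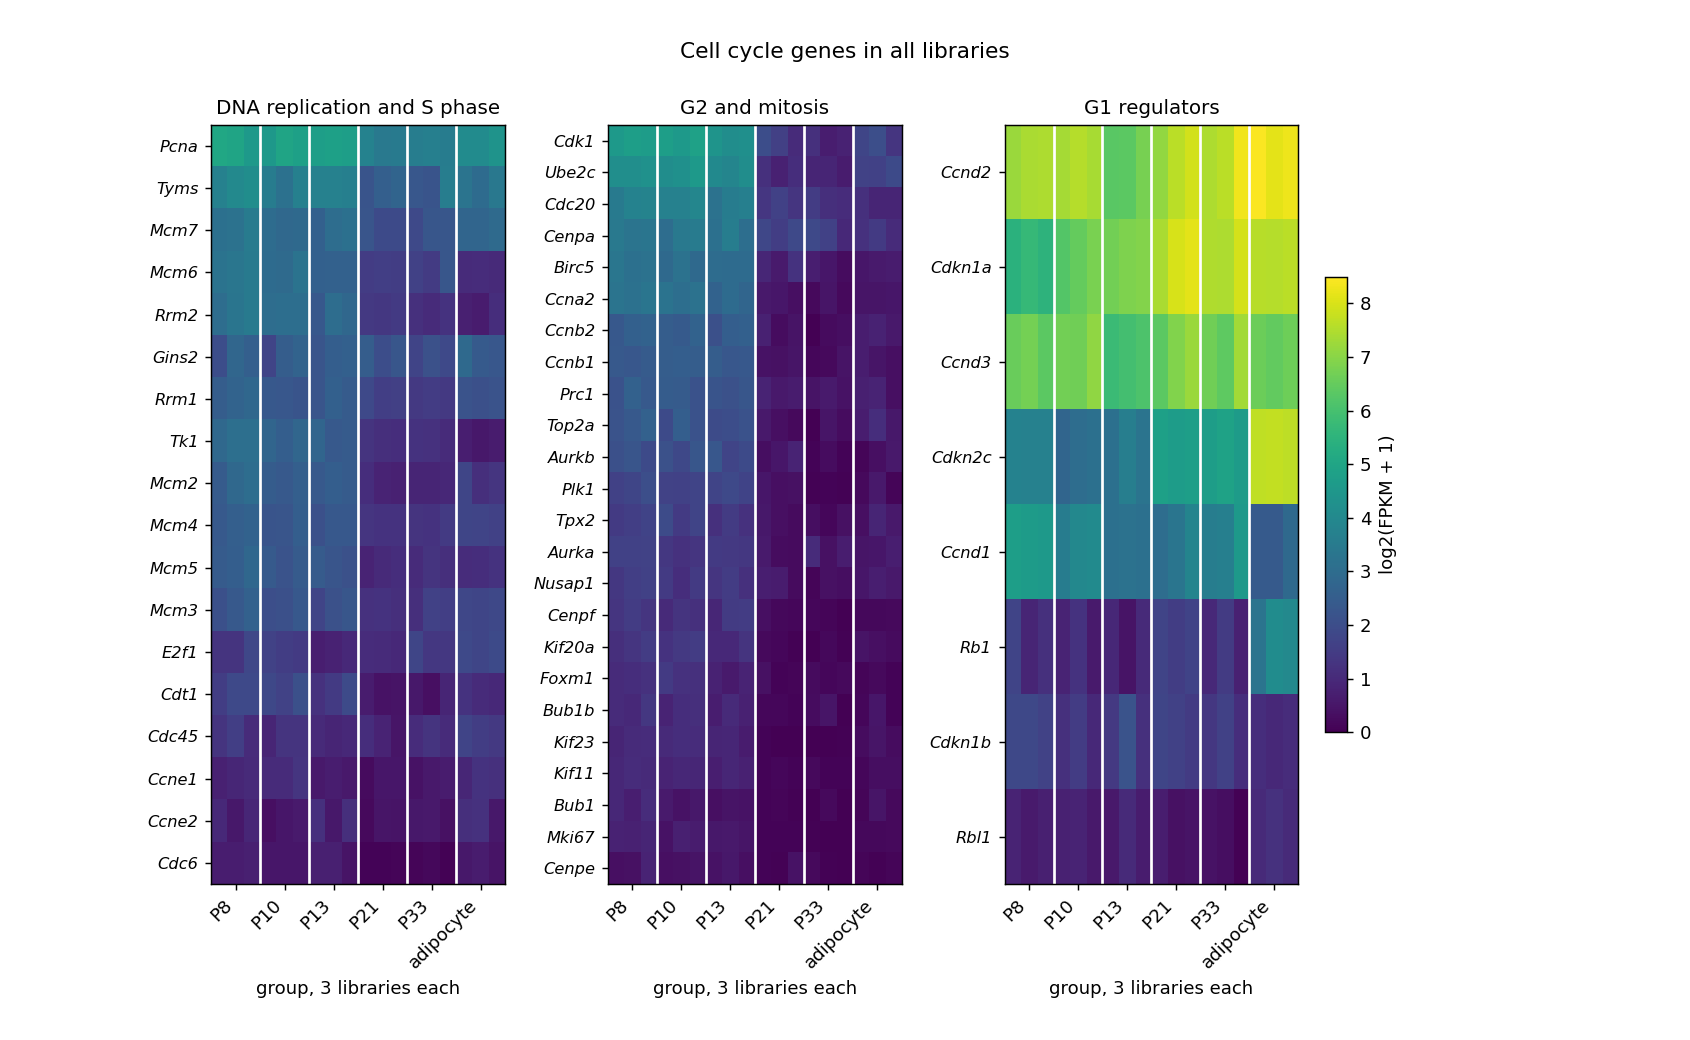
Log2(FPKM + 1) of the 50 genes (rows, ordered by mean level within each role) in the 18 libraries (columns, 3 per group, from P8 to P33 and then adipocytes). Most replication and mitosis rows darken between the P13 and P21 columns, while Ccnd2, Ccnd3 and Cdkn1a stay at the bright end in every group.

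Over the 5 stages the replication genes held a median of 4.33 to 5.765 FPKM at P8, 3.845 to 4.58 FPKM at P10, 3.705 to 4.195 FPKM at P13, 1.2 to 1.345 FPKM at P21 and 1.31 to 1.485 FPKM at P33 (range of the 3 libraries, median over 18 genes). The mitosis genes held 2.11 to 2.51, 1.92 to 2.49, 2.02 to 2.07, 0.22 to 0.445 and 0.155 to 0.205 FPKM at the same stages (median over 24 genes). Among the sorted stages, the P13 medians of both lists thus lay below all P8 medians. Gene by gene, the median ratio of P8 over P13 was 1.3 for mitosis and 1.33 for replication. Both lists were lower in the buoyant cells, with no overlap between P13 and P21. In adipocytes the medians were 1.57 to 2.365 FPKM for replication and 0.35 to 0.435 FPKM for mitosis. Of the 24 mitosis genes, 19 to 22 reached 1 FPKM in a P8 library, 19 to 20 in a P10 library, 15 to 17 in a P13 library, 3 to 5 in a P21 library and 1 to 4 in a P33 library. Replication genes kept more of their number, with 13 of 18 at 1 FPKM or more in each P33 library and 15 to 16 in each P8 library. A count at a fixed level depends on where a list starts, and the replication medians at P8 were above those of the mitosis genes. Among lipochondrocyte groups, the highest mean was at P8 for 14 replication and 14 mitosis genes and at P10 for 3 and 10. Ccne2, which encodes the S-phase cyclin E2, had its highest lipochondrocyte mean at P13, where its libraries ranged from 0.47 to 1.28 FPKM.

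**Figure D2:**
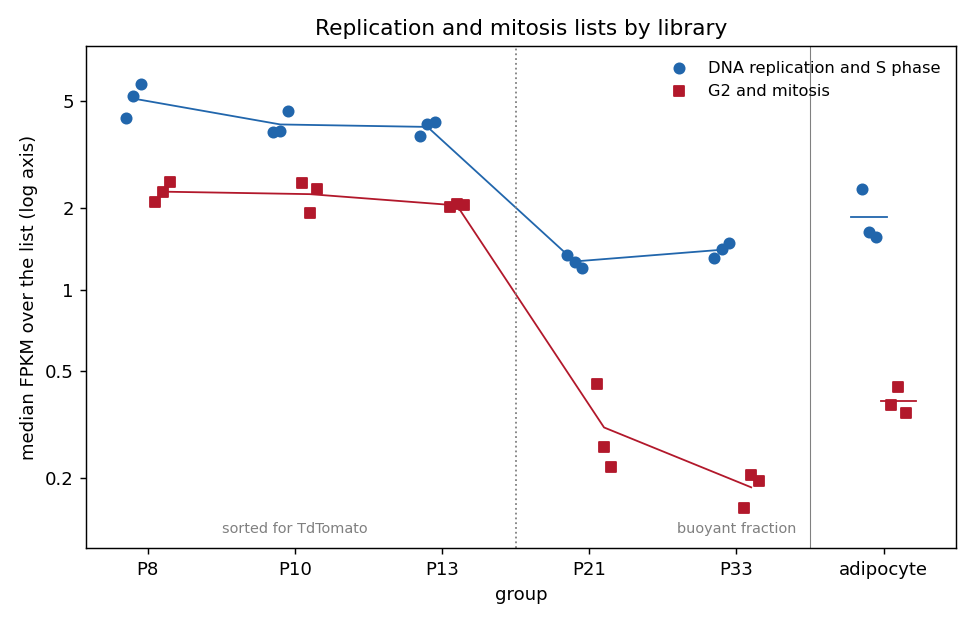
Median FPKM over the 18 replication genes (circles) and the 24 mitosis genes (squares) in each library, on a log axis; lines join the means of the lipochondrocyte groups and short bars mark the adipocyte means. Mitosis medians lie at 2.02 to 2.07 FPKM at P13 and 0.22 to 0.445 FPKM at P21, and the dotted line separates sorted from buoyant cells.

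Between P8 and P13, when cells were isolated in the same way, the 7 genes called comprised 3 regulators of G1, 3 replication genes and 1 mitosis gene. Cdkn1a, which encodes the CDK inhibitor p21, rose 2.48-fold, while Ccnd1, which encodes cyclin D1, fell to 7.93 ± 0.246 FPKM at P13, against 24.4 ± 1.67 FPKM at P8 (SD, n = 3 each). Of the 45 genes tested 1 was called higher and 6 lower at P13, against 2.69% of all genes higher and 1.52% lower. At an unadjusted p below 0.05, 1 was higher and 15 lower, against 8.34% of all genes higher and 7.51% lower. Over all 50 genes, the 5 below the filter included, the groups did not overlap for 1 higher and 21 lower. Among all genes tested, which had passed the filter, the share was 10.9% in each direction. The genes called lower were Ccnd1, Ccnd2, Mcm6, E2f1, Tk1 and Ccna2.

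Cdkn1a stood at 102.86, 114.9 and 121.08 FPKM in the P13 libraries and at 42.09, 51.08 and 43.72 FPKM in the P8 libraries. Every P13 library was above every P8 library, and the difference was 1.29 on the log2 scale (SE 0.18, adjusted p = 0.000662, limma with Benjamini-Hochberg adjustment). At P10 it was already at 74.01, 89.98 and 108.91 FPKM, above P8 by 0.97 (SE 0.18, adjusted p = 0.00592). Ccnd1 was at 7.72, 8.2 and 7.87 FPKM at P13, against 26.14, 24.25 and 22.8 FPKM at P8. The difference was -1.51 (SE 0.25, adjusted p = 0.00192), and the groups did not overlap. Ccnd1 shares 1100 exon bases with the antisense gene LTO1, whose highest level was 7.23 FPKM. Ccnd2, encoding cyclin D2, was at 78.28, 81.6 and 106.21 FPKM at P13, against 149.42, 170.56 and 174.76 FPKM at P8, a difference of -0.90 (SE 0.22, adjusted p = 0.0305). The 3 P13 libraries were again below all P8 libraries.

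Among replication genes, Mcm6 was at 5.14, 5.21 and 5.17 FPKM at P13 and at 8.47, 9.05 and 9.98 FPKM at P8 (difference -0.72, SE 0.16, adjusted p = 0.0169). E2f1, the factor that opens S phase, averaged 0.773 ± 0.163 FPKM at P13 and 1.78 ± 0.647 FPKM at P8 (-0.63, adjusted p = 0.0254). Tk1, a thymidine kinase of nucleotide salvage, averaged 4.84 ± 0.921 FPKM at P13 and 7.21 ± 0.826 FPKM at P8 (-0.50, adjusted p = 0.0346). Ccna2, which encodes cyclin A2 of S phase and G2, was the only mitosis gene called, at 5.45, 6.8 and 5.82 FPKM at P13, against 8.71, 7.93 and 8.8 FPKM at P8 (-0.44, adjusted p = 0.03). These 4 calls and that of Ccnd2 were each lost without P8 replicate 3 and without 2 to 4 other single libraries of P8 or P13, with adjusted p of 0.0522 to 0.146 in those fits. The calls of Ccnd1 and Cdkn1a held in all 6 such fits. Cdk1 had 19.99, 17.06 and 17.91 FPKM at P13, against 22.64, 26.37 and 24.85 FPKM at P8, and Ccnb1, encoding cyclin B1, had 4.65, 3.9 and 4.03 FPKM at P13, against 4.19, 4 and 4.39 FPKM at P8; neither was called. Over the whole lists the median ratio was 1.3-fold lower at P13 for the mitosis genes and 1.33-fold lower for the replication genes. Fibroblast and perichondrium markers summed to 2348 to 3060 FPKM at P13 and 3746 to 5187 FPKM at P8, with 1 of 11 called higher and 3 lower. The 6 Schwann cell markers, among which S100b is also made by chondrocytes, summed to 170.1 to 179.46 FPKM at P13 and 73.04 to 93.14 FPKM at P8. Only 3 of the 6 were tested, with 1 called higher and 0 lower. The part of either marker list in these differences was not tested.

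The interval was not a steady slope. At P10 against P8, 1 gene was called higher (Cdkn1a) and 3 lower (Ccnd1, Cdkn2c and Rrm1), against 1.9% of all genes higher and 9.14% lower. Cdkn2c, which encodes the CDK4 and CDK6 inhibitor p18, was at 5.81, 7.25 and 7.8 FPKM at P10, against 12.78, 12.31 and 12.18 FPKM at P8 (-0.76, SE 0.12, adjusted p = 0.00205). Rrm1, the large subunit of ribonucleotide reductase, averaged 3.87 ± 0.265 FPKM at P10 and 5.44 ± 0.765 FPKM at P8 (-0.40, adjusted p = 0.0444). The Ccnd1 call (-0.80, adjusted p = 0.0495) was lost without any 1 of the 6 libraries (adjusted p = 0.0603 to 0.198), and that of Rrm1 without any of them but P8 replicate 1 (adjusted p = 0.0923 to 0.148). The median of all tested genes lay at -0.19 in this comparison. With median-of-ratios scaling, which brought it to 0.0064, Ccne1 and Ccnb1 were called higher beside Cdkn1a, and Cdkn2c alone was lower. Among all genes 503 were then called higher and 126 lower, so 79.97% of all calls were higher, against 17.18% before. Fibroblast and perichondrium markers summed to 7063 to 9207 FPKM at P10 and 3746 to 5187 FPKM at P8, with 5 of 11 called higher and 0 lower, and their part in the result was not tested.

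At P13 against P10, 1 gene was called higher and 6 lower, against 18.6% of all genes higher and 4.03% lower. Ccnd2 had 78.28, 81.6 and 106.21 FPKM at P13, against 164.14, 187.76 and 166.73 FPKM at P10 (-0.97, SE 0.22, adjusted p = 0.00603). Ccnd3, encoding cyclin D3, had 54.96, 61.16 and 68.19 FPKM at P13, against 103.3, 99.22 and 133.67 FPKM at P10 (-0.85, SE 0.23, adjusted p = 0.0162). Every P13 library was below every P10 library for both. E2f1 (-0.73, adjusted p = 0.00295), Ccne1 (-0.53, adjusted p = 0.00453), which encodes the S-phase cyclin E1, Foxm1 (-0.51, adjusted p = 0.00232), which encodes the mitotic transcription factor, and Ccna2 (-0.36, adjusted p = 0.0244) were also lower. Cdkn2c was higher (0.37, adjusted p = 0.0469), with overlapping groups. It lost this call without P13 replicate 2 or 3, without P10 replicate 1 or 2, under both other scalings and both other filters, and with fewer groups in the fit (adjusted p = 0.0536 to 0.513 over these). The calls of Ccna2 and Ccnd3 were also lost without P13 replicate 1 or P10 replicate 3, and that of Ccna2 without P13 replicate 3 or P10 replicate 1 (adjusted p = 0.0526 to 0.0885). With median-of-ratios scaling, which moved the median of all genes to 0 from 0.15, 20 of the 50 genes were lower and 0 higher, among them Cdk1 (-0.75, adjusted p = 0.0218) and Mcm6 (-0.68, adjusted p = 0.00624). Among all genes 1132 were then called higher and 1212 lower, so 48.3% of all calls were higher, against 82.2% before. Fibroblast and perichondrium markers summed to 2348 to 3060 FPKM at P13 and 7063 to 9207 FPKM at P10. Of these 11 markers 9 were called lower and 1 higher, and their part in the falls of Ccnd2, Ccnd3 and the others was not tested.

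The wide gap lay between P13 and P21. Mitosis genes were lower by a median of 7.43-fold at P21, with a range of 2.59-fold for Cenpe to 25.4-fold for Kif23, and replication genes by a median of 2.62-fold, with a range to 9.05-fold for Cdc6. The ratios are of mean FPKM at P13 over P21. All 20 tested mitosis genes and 13 of the 17 tested replication genes were called lower and none higher, while 5 of the 8 regulators were called higher and none lower. Among all genes tested, 36% were called higher and 7.04% lower. With no filter on low values, so that every one of the 50 was tested, 23 of 24 mitosis genes and 13 of 18 replication genes were lower, against 3.45% of all genes; Cenpe was the mitosis gene not called.

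Ube2c, which encodes the ubiquitin-conjugating enzyme of the anaphase-promoting complex, had 1.25, 0.71 and 1.17 FPKM at P21, against 15.47, 13.7 and 16.92 FPKM at P13. The difference of -3.01 (SE 0.13, adjusted p = 4.5e-10) was the largest fall on this scale among the 50 genes. Ube2c shares 592 exon bases with the antisense muscle gene Tnnc2, which reached 60.73 FPKM. Cdk1 had 2.99, 2.05 and 1.07 FPKM at P21, against 19.99, 17.06 and 17.91 FPKM at P13 (-2.72, SE 0.22, adjusted p = 2.46e-07). Ccna2 had 0.51, 0.42 and 0.26 FPKM at P21, against 5.45, 6.8 and 5.82 FPKM at P13, 15.2-fold lower (-2.33, SE 0.11, adjusted p = 5e-10). For each of these genes the highest P21 library lay far below the lowest P13 library.

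The mitotic B cyclins behaved in the same direction: Ccnb1 averaged 0.347 ± 0.0603 FPKM at P21 and 4.19 ± 0.401 FPKM at P13 (12.1-fold lower), and Ccnb2 0.43 ± 0.249 FPKM at P21 and 4.34 ± 1.0 FPKM at P13. Birc5, the survivin subunit of the chromosomal passenger complex, fell by 2.05 (adjusted p = 7.53e-08), and its partner kinase Aurkb fell by 1.42 (adjusted p = 2.06e-05). Cdc20, an activator of the anaphase-promoting complex, fell by 2.04 to 1.55, 2.16 and 1.46 FPKM at P21, against 8.21, 10.81 and 11.72 FPKM at P13 (adjusted p = 1.61e-07). Top2a had 0.51, 0.26 and 0.17 FPKM at P21, against 2.81, 3.04 and 3.38 FPKM at P13 (-1.64, SE 0.19, adjusted p = 9.65e-06). Its promoter, shown above, holds 2 CHR and 6 NF-Y matches. The kinesins and spindle proteins were lower as well: Kif20a, Tpx2, Nusap1 and Prc1, which bundle or transport microtubules, differed by -0.95, -0.91, -0.78 and -1.51. Cenpa, the histone variant of the centromere, kept the highest level of the list at P21, with 2.54, 1.93 and 2.66 FPKM, against 7.81, 11.19 and 7.47 FPKM at P13 (-1.53, adjusted p = 6.18e-05). Mki67, below the filter, had 0.07, 0.05 and 0.06 FPKM at P21, against 0.45, 0.5 and 0.4 FPKM at P13, 7.5-fold lower; in the fit without a filter its difference was -0.45 (adjusted p = 0.000368).

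Of the replication genes, all 6 MCM subunits were called lower. Mcm2 had 1.15, 0.81 and 0.73 FPKM at P21, against 4.18, 4.76 and 4.43 FPKM at P13 (-1.53, SE 0.17, adjusted p = 4.86e-06), and Mcm5 had 0.81, 1 and 1.18 FPKM at P21, against 4.42, 3.71 and 3.32 FPKM at P13 (-1.27, SE 0.13, adjusted p = 2.82e-06). Mcm7 differed least of the 6 on the ratio, 2.17-fold lower. It shares 64 exon bases with the antisense gene Cops6 and 321 with Ap4m1. These averaged 72.4 and 4.09 FPKM at P21, against 53.4 and 2.51 FPKM at P13, and their part in the Mcm7 value was not tested. The licensing factor Cdt1 fell by 1.04 (adjusted p = 0.000421), and Cdc6, its partner in loading MCM, had 0.05, 0.06 and 0.08 FPKM at P21, against 0.67, 0.67 and 0.38 FPKM at P13. For nucleotide supply, Tk1 fell by 1.37, Rrm2, the regulated subunit of ribonucleotide reductase, by 1.33, Tyms, thymidylate synthase, by 1.21 and Rrm1 by 0.73 (adjusted p from 8.96e-07 to 0.00361). Ccne2 fell by 0.57 (adjusted p = 0.0264), a call lost without P21 replicate 1 and without P13 replicate 1 or 3 (adjusted p = 0.0907 to 0.11). Pcna, the polymerase clamp that also serves repair, remained the most abundant of the list, with 12.59, 9.9 and 10.15 FPKM at P21, against 26.41, 27.48 and 25.97 FPKM at P13 (-1.22, SE 0.14, adjusted p = 9.59e-06). Cdc45 (-0.15, adjusted p = 0.506) and Gins2 (-0.20, adjusted p = 0.562), the helicase partners of MCM, Ccne1 (-0.18, adjusted p = 0.215) and E2f1 (0.21, adjusted p = 0.277) were not called. With median-of-ratios scaling Ccne1 was called lower (-0.32, adjusted p = 0.0245). Cdc45 shares 209 exon bases with the antisense gene Ufd1, which averaged 17.5 FPKM at P21 and 11.6 FPKM at P13. Gins2 shares 2758 with antisense Gse1, at 1.01 FPKM at P21 and 0.847 FPKM at P13. E2f1 had 1.12, 1.06 and 0.96 FPKM at P21, against 0.63, 0.74 and 0.95 FPKM at P13, so its libraries lay just apart in the other direction.

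Of the 8 regulators, 5 were higher and 3 were not called. Cdkn2c had 27.5, 24.83 and 25.97 FPKM at P21, against 7.8, 11.52 and 8.61 FPKM at P13 (1.41, SE 0.12, adjusted p = 6.14e-07), and Cdkn1a had 171.72, 252.13 and 282.42 FPKM at P21, against 102.86, 114.9 and 121.08 FPKM at P13 (1.03, SE 0.18, adjusted p = 0.000478). All P21 libraries were above all P13 libraries for both inhibitors. Ccnd2 (1.07, adjusted p = 0.00134) and Ccnd3 (0.86, adjusted p = 0.00799), which promote entry into the cycle, and Rb1 (0.87, adjusted p = 0.0178), the retinoblastoma protein, were higher too. Rb1 averaged only 2.19 ± 0.248 FPKM at P21 and 0.77 ± 0.341 FPKM at P13, its call was lost without P13 replicate 2 (adjusted p = 0.0771), and its exons overlap those of the antisense genes Rcbtb2 and Lpar6, which reached 54.91 and 10.24 FPKM in adipocytes. Ccnd1 (0.24, adjusted p = 0.466), Cdkn1b (0.05, adjusted p = 0.882), encoding the inhibitor p27, and Rbl1 (-0.26, adjusted p = 0.136), encoding the retinoblastoma relative p107, were not called. The median of all tested genes stood at 0.29 here and at 0 after median-of-ratios scaling. On that scale Cdkn1a and Cdkn2c stayed higher, whereas Ccnd2 (0.62, adjusted p = 0.0507), Ccnd3 (0.41, adjusted p = 0.227) and Rb1 (0.61, adjusted p = 0.12) were no longer called and Rbl1 was called lower (-0.42, adjusted p = 0.0351). Of the 50 genes, 36 were then called lower. Among all genes 2138 were then called higher and 2252 lower, so 48.7% of all calls were higher, against 83.7% before.

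Isolation and other cells changed between the same groups. Summed FPKM at P21, against P13, was 6448 to 12269 against 2348 to 3060 for 11 fibroblast and perichondrium markers, 73.95 to 509.05 against 22.39 to 35.94 for 7 skeletal muscle markers, 17.5 to 27.66 against 3.9 to 4.45 for 10 macrophage markers, and 36.16 to 152.46 against 2.32 to 4.2 for 5 erythroid markers. Endothelial markers summed to 3.63 to 8.6 FPKM at P21 and 2.89 to 3.73 FPKM at P13, and Cd3e, Cd3g, Cd8a and Nkg7 of the lymphocyte list were at 0 in both. The 8 adipocyte markers summed to 16.23 to 23.72 FPKM at P21 and 1.96 to 2.36 FPKM at P13. Of these, 6 were called higher and 0 lower, against 36% of all genes higher and 7.04% lower. Whether other cells carried them was not tested. The 6 Schwann cell markers, among which S100b is also made by chondrocytes, summed to 298.88 to 398.68 FPKM at P21 and 170.1 to 179.46 FPKM at P13. Only 3 of the 6 were tested, with 1 called higher and 0 lower. The part of these other cells in the result was not tested. In bulk RNA, fewer dividing cells and less of these transcripts per cell cannot be told apart.

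**Figure D3:**
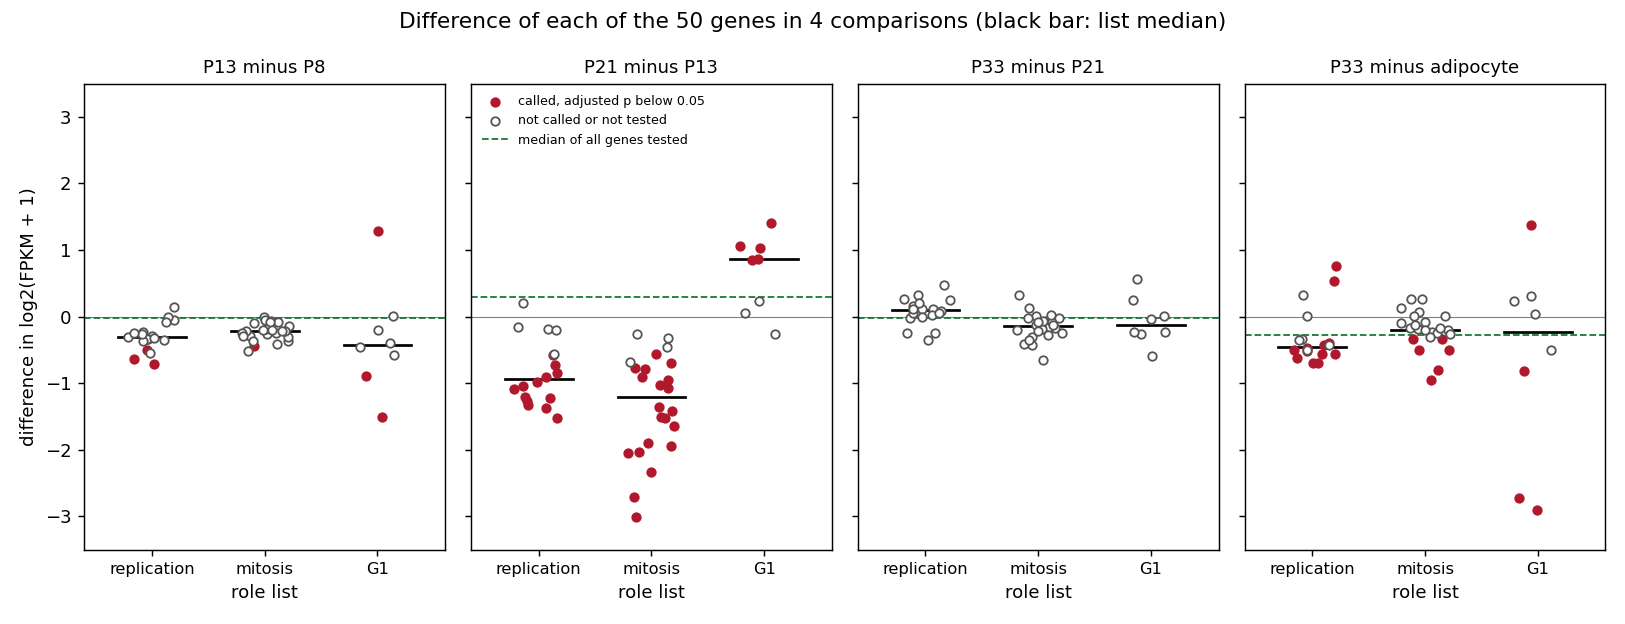
Difference in log2(FPKM + 1) for each of the 50 genes, by role, in 4 comparisons; filled points were called, open points were not called or, for the 5 genes below the filter, not tested in the main fit. Black bars are list medians over all members and the dashed line is the median of all genes tested, 0.29 for P21 minus P13.

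Between P21 and P33, both buoyant fractions, no further change was called. Of the 45 genes 0 were called higher and 0 lower in limma, against 2.87% of all genes higher and 7.17% lower; at an unadjusted p below 0.05 there were 3 higher (Aurka, Ccnd1 and E2f1) and 5 lower (Aurkb, Birc5, Cdk1, Plk1 and Rb1), against 8.24% of all genes higher and 15.1% lower. Cdk1 had 1.28, 0.62 and 0.77 FPKM at P33, against 2.99, 2.05 and 1.07 FPKM at P21 (-0.65, SE 0.22, adjusted p = 0.0778), and the groups overlapped. E2f1 had 2.39, 1.6 and 1.59 FPKM at P33, against 1.12, 1.06 and 0.96 FPKM at P21 (0.47, SE 0.15, adjusted p = 0.0596), with no overlap. Plk1, the polo kinase of mitotic entry, was at 0.04, 0.06 and 0.04 FPKM at P33, against 0.44, 0.28 and 0.3 FPKM at P21. At such levels the pseudocount matters, and with 0.1 in place of 1 Plk1 (-1.57, adjusted p = 0.00881) and Aurkb (-1.49) were called lower. Of all calls 28.6% were higher, or 16.0% with libraries scaled to the same sum. Of the 10 macrophage markers 5 were called higher at P33 and 0 lower.

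Over the whole span, from P8 to P33, the mitosis genes ended 19.8-fold lower and the replication genes 2.88-fold lower in the median. All 20 tested mitosis genes and 13 of 17 replication genes were called lower at P33, against 12.8% of all genes lower and 35.5% higher. With no filter on low values, 24 of 24 mitosis genes and 14 of 18 replication genes were lower. The share was 6.48% of the 28146 genes above 0 FPKM in at least 1 library. Of all calls 73.5% were higher, or 50.6% with median-of-ratios scaling, which moved the median of all genes to 0.017 from 0.23. The 50 genes then had 2 calls higher and 38 lower, against 2 and 35 before. Among all genes 3081 were then called higher and 3004 lower. Plk1 averaged 0.0467 ± 0.0115 FPKM at P33 and 2.56 ± 0.528 FPKM at P8, 54.8-fold lower, and Cdk1 0.89 ± 0.346 FPKM at P33 and 24.6 ± 1.88 FPKM at P8, 27.7-fold lower. Rrm2 was the replication gene with the largest difference, -2.13 (SE 0.17, adjusted p = 1.32e-07), with 1.25, 1.05 and 1.38 FPKM at P33, against 7.26, 8.98 and 10.24 FPKM at P8. Mcm6 kept 2.13, 1.78 and 3.85 FPKM at P33, against 8.47, 9.05 and 9.98 FPKM at P8 (-1.54, adjusted p = 1.66e-06). Cdkn1a ended 4.37-fold higher (2.09, SE 0.18, adjusted p = 3.52e-07) and Cdkn2c 2.13-fold higher (1.03, SE 0.12, adjusted p = 9.44e-06). Ccnd1 (-0.71, adjusted p = 0.027) and Rbl1 (-0.48, adjusted p = 0.00897) were the 2 regulators called lower. Ccnd1 overlapped between the groups, with 23 FPKM in P33 replicate 3, and lost its call without replicate 1 or 2 of either stage (adjusted p = 0.0589 to 0.118). The Ccne1 call (-0.36, adjusted p = 0.017) was lost without P33 replicate 1 or P8 replicate 3 (adjusted p = 0.0629 and 0.0694). Ccnd2 (0.42, adjusted p = 0.125) and Ccnd3 (0.24, adjusted p = 0.412) were not called. These 2 D-type cyclins were thus abundant in P33 libraries whose median over the mitosis genes was 0.155 to 0.205 FPKM. In bulk RNA, it was not tested whether the same cells held both. Macrophage markers summed to 32.35 to 60.77 FPKM at P33 and 2.5 to 2.96 FPKM at P8 (8 of 10 called higher), skeletal muscle markers to 24.93 to 193.87 FPKM at P33 and 5.32 to 8.15 FPKM at P8 (5 of 6 tested higher), and erythroid markers to 17.09 to 61.82 FPKM at P33 and 2.16 to 4.07 FPKM at P8 (3 of 4 tested higher). Their part in the result, and that of the cartilage genes that were lower, was not tested.

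**Figure D4:**
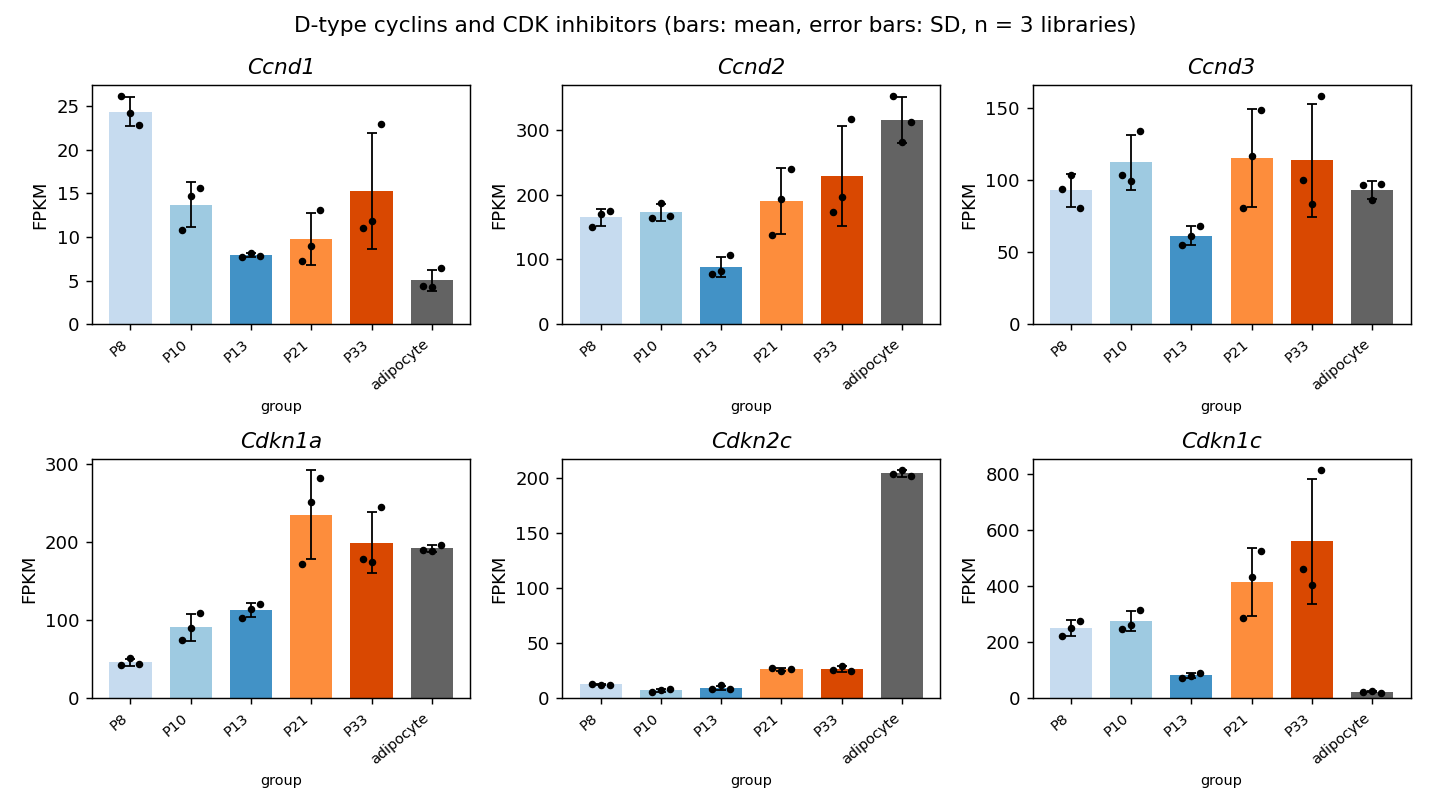
FPKM of 3 D-type cyclins and 3 CDK inhibitors in the 18 libraries; bars are means, error bars the SD of 3 libraries and points the libraries. Cdkn1a lies between 171.72 and 282.42 FPKM at P21, against 42.09 to 51.08 FPKM at P8, Cdkn2c is highest in adipocytes, and Cdkn1c is high in lipochondrocytes other than at P13.

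P33 lipochondrocytes and adipocytes, taken at the same age by flotation, were both low in mitotic transcripts. Of the 8 regulators 1 was called higher and 3 lower in lipochondrocytes, of the 17 replication genes 2 and 10, and of the 20 mitosis genes 0 and 6. Lipochondrocytes held 7.74-fold less Cdkn2c, 11.7-fold less Rb1 and 3.04-fold more Ccnd1 than adipocytes. Of the 45 genes 3 were called higher and 19 lower in lipochondrocytes, against 24% of all genes higher and 44.5% lower, so the share called lower was near that of all genes tested. The antisense neighbours that share exons with Rb1 differed in the same direction: Rcbtb2 averaged 12.8 FPKM in P33 lipochondrocytes and 50.2 FPKM in adipocytes, and Lpar6 0.537 FPKM in P33 lipochondrocytes and 9.92 FPKM in adipocytes. Cdkn2c had 25.55, 29.03 and 24.64 FPKM in P33 lipochondrocytes, against 204.25, 207.44 and 201.63 FPKM in adipocytes (-2.91, SE 0.12, adjusted p = 1.29e-11). Rb1 had 0.96, 1.78 and 0.72 FPKM in P33 lipochondrocytes, against 8.67, 16.48 and 15.19 FPKM in adipocytes (-2.73, SE 0.27, adjusted p = 2.83e-07), and Rbl1 was lower too (-0.82, adjusted p = 7.63e-05). The groups did not overlap for any of the 3. Cdkn1a was at 178.68, 174.58 and 244.63 FPKM in P33 lipochondrocytes, against 190.51, 188.69 and 196.74 FPKM in adipocytes (0.04, SE 0.18, adjusted p = 0.875).

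Ccnd1 had 11.09, 11.83 and 23 FPKM in P33 lipochondrocytes, against 4.35, 4.31 and 6.44 FPKM in adipocytes (1.38, SE 0.25, adjusted p = 0.00014). Mcm6 had 2.13, 1.78 and 3.85 FPKM in P33 lipochondrocytes, against 1.05, 1.12 and 1.01 FPKM in adipocytes (0.76, SE 0.16, adjusted p = 0.000562), and Tk1 was higher by 0.54 (adjusted p = 0.00135). Other MCM subunits went the other way or were not called: Mcm7 (-0.69, adjusted p = 0.00124), Mcm2 (-0.52, adjusted p = 0.012) and Mcm4 (-0.39, adjusted p = 0.0069) were lower, Mcm3 (-0.35, adjusted p = 0.0771) and Mcm5 (0.01, adjusted p = 0.972) were not called. With libraries scaled to the same sum, Mcm3 was called lower (-0.45, adjusted p = 0.0389). The antisense neighbours of Mcm7 had lower means too. Cops6 averaged 66.3 FPKM in P33 lipochondrocytes and 109.6 FPKM in adipocytes, and Ap4m1 3.65 and 6.51 FPKM. Ufd1, antisense to Cdc45, averaged 18.2 FPKM in P33 lipochondrocytes and 29.1 FPKM in adipocytes. The part of these neighbours was not tested. Pcna had 11.08, 11.85 and 10.95 FPKM in P33 lipochondrocytes, against 16.21, 15.96 and 19.42 FPKM in adipocytes (-0.56, SE 0.14, adjusted p = 0.0026). In the mitosis list 6 of 20 were lower, Ube2c (-0.95), Cdk1 (-0.80), Top2a (-0.51), Ccnb2 (-0.51), Nusap1 (-0.34) and Kif23 (-0.33). Cdk1 had 1.28, 0.62 and 0.77 FPKM in P33 lipochondrocytes, against 2.4, 3.13 and 1.48 FPKM in adipocytes. Calls were lost without P33 replicate 1 for Ccnb2, Ccne2, Cdc45, Cdt1, Gins2, Nusap1 and Top2a, and without adipocyte replicate 1 for Ccne2, Cdc45, Cdt1, Gins2, Mcm2 and Nusap1 (adjusted p = 0.0505 to 0.18 in all fits that lost one).

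The median of all genes lay at -0.28 in this comparison. With median-of-ratios scaling, which brought it to 0, 10 genes were lower and 5 higher: Pcna (-0.23, adjusted p = 0.219), Mcm2 (-0.29), Mcm4 (-0.15) and Top2a (-0.35) were among those no longer called, and Rrm2 (0.43) and Cdc20 (0.40) became called higher. Among all genes 4138 were then called higher and 4598 lower, so 47.4% of all calls were higher, against 35.02% before. Cdc20 shares 53 exon bases with the antisense gene Elovl1, which averaged 77.0 FPKM in P33 lipochondrocytes and 30.4 FPKM in adipocytes. The part of Elovl1 in the Cdc20 value was not tested. Macrophage markers summed to 32.35 to 60.77 FPKM in P33 lipochondrocytes and 770.05 to 834.01 FPKM in adipocytes, and endothelial markers to 6.58 to 8.66 FPKM in P33 lipochondrocytes and 724.84 to 775.02 FPKM in adipocytes. Their part in the difference was not tested.

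Other genes of the cycle, in lists of known components, were read beside the 50. At P21 against P13, 22 of the 32 tested of 54 further mitosis genes were lower and 1 higher, against the 7.04% lower and 36% higher of all genes tested. With no filter, 35 of the 54 were lower, against 3.45% of the 28146 genes above 0 FPKM in at least 1 library. Cks2, a partner of CDK1, averaged 2.24 FPKM at P21 and 16.4 FPKM at P13 (-2.47, SE 0.27, adjusted p = 5.64e-06), Cdca3 fell by 1.88 and Cdca8, of the chromosomal passenger complex, by 1.67. The phosphatase gene Cdc25b was the 1 that was higher (0.51, adjusted p = 0.0092), a call lost with median-of-ratios scaling (0.10, adjusted p = 0.598), with equal sums, with only the 2 groups in the fit and without P21 replicate 2 (adjusted p = 0.0522 to 0.115 over the last 3). Of 38 tested of 45 further replication genes 16 were lower and 3 higher, and with no filter 15 of the 45 were lower. Uhrf1, which maintains DNA methylation after replication, fell by 1.35 (adjusted p = 1.14e-06), Gmnn, the inhibitor of CDT1, by 1.17 and the flap nuclease Fen1 by 1.15. Dut, the dUTPase, was the largest exception (1.47, SE 0.22, adjusted p = 0.000116), with Gins4 and Rpa1 (0.69 and 0.53). Gins4 lost its call with median-of-ratios scaling (adjusted p = 0.186), and Rpa1 lost it under both scalings, under both other filters, with lipochondrocytes alone and without any 1 of 5 libraries (P21 replicates 1, 2 and 3 and P13 replicates 1 and 2; adjusted p = 0.0512 to 0.679 over these). Between P8 and P13, 0 genes of these 2 lists were called by limma in either direction; at an unadjusted p below 0.05, 2 replication genes were higher and 3 lower, and 0 mitosis genes were higher and 3 lower, beside 8.34% of all genes higher and 7.51% lower.

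Of 24 tested of 29 further regulators, 6 were higher and 7 lower at P21 against P13, beside 36% higher and 7.04% lower among all genes. Cdkn1c, encoding the CDK inhibitor p57, had 285.73, 434.31 and 524.18 FPKM at P21, against 72.54, 80.59 and 88.78 FPKM at P13 (2.31, SE 0.24, adjusted p = 3.23e-06). It was not on a steady course, since it was also lower at P13 than at P8 (-1.62, SE 0.24, adjusted p = 0.000934), where it had 221.51, 252.15 and 276.5 FPKM. In P33 lipochondrocytes it had 462.12, 404.42 and 815.41 FPKM, against 22.31, 23.59 and 19.69 FPKM in adipocytes (4.55, SE 0.24, adjusted p = 1.64e-10). Gas1, named for growth arrest, was higher at P21 than at P13 (1.29, adjusted p = 0.00224) and higher in P33 lipochondrocytes than in adipocytes (3.95, adjusted p = 7.08e-09). Myc, the growth-promoting factor, had 3.66, 2.81 and 2.86 FPKM at P21, against 14.91, 20.52 and 20.03 FPKM at P13 (-2.24, SE 0.17, adjusted p = 1.64e-07), and peaked at P10 with 63.02, 63.68 and 77.58 FPKM. Btg1, an antiproliferative gene, was lower at P21 than at P13 as well (-2.08, adjusted p = 3e-07).

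Cdkn1a is also a target of p53, and 15 other targets were read beside it. Of the 14 tested, 5 were higher and 2 lower at P21 against P13, a share of higher calls near the 36% of all genes, and Btg2 alone was called between P8 and P13. Phlda3 was higher at P21 than at P13 (1.17, adjusted p = 0.000925), as were Sesn1 (0.67) and Bax (0.57), whereas Bbc3 fell by 0.82. With median-of-ratios scaling Sesn1 (0.26, adjusted p = 0.167) and Bax (0.13, adjusted p = 0.644) were not called, and Bax was not called with equal sums or without P21 replicate 3 either (adjusted p = 0.0987 and 0.0658). Btg2, which is also induced when tissue is dissociated, had 8.89, 5.87 and 4.44 FPKM at P21, against 385.35, 441.58 and 462.11 FPKM at P13 (-5.90, SE 0.17, adjusted p = 4.56e-12). It had 77.71, 87.97 and 74.91 FPKM at P8, so at P13 it was higher than at P8 by 2.41 (SE 0.17, adjusted p = 1.22e-06).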

How the data were processed

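RNA was sequenced from 18 samples in 6 groups of 3. The submitters' processing notes name STAR 2.4.2a as a tool and mm10 as the genome build, and how fragments were assigned to genes is not given in the sources used here. The deposited table holds FPKM calculated by the authors, to 2 decimals, and a second deposited table gives the count of total reads and the percent of reads aligned per library. FPKM carry no counts per gene, so depth limits low values and no counting interval is given. The labels do not say whether replicates were separate animals, so p-values measure the spread between these libraries.

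Values were compared as log2(FPKM + 1) with limma 3.58.1 in R 4.3.3: 6 group means over all 18 libraries, a mean-variance trend, genes at 1 FPKM or more in at least 3 libraries (13815 genes), two-sided tests, Benjamini-Hochberg adjustment over all genes tested and a threshold of 0.05, in 7 comparisons. Differences are on the log2(FPKM + 1) scale, which understates changes of low genes; ratios are of mean FPKM. Alternatives changed the pseudocount, filter, scaling, groups fitted, trend and replicates. Overlaps and positions of genes are from GENCODE M21 (GRCm38). The 50 genes and the lists were chosen with earlier results of these data known, so no list was tested. Named are up to 10 called genes with the largest change in each direction whose groups do not overlap, a fixed set of cycle genes, and up to 3 called genes per direction of each further list; others were chosen after their values were seen.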

Additional observations from a re-analysis of the deposited data

How the results depend on the processing

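Of the 50 genes' differences, none changed sign with a call under any alternative run. The counts of genes called and the median levels of the lists moved, and the cause was not tested.

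Median-of-ratios scaling gave 503 higher and 126 lower among all genes at P10 against P8 (262 and 1263 as reported), 1132 and 1212 at P13 against P10 (2567 and 557), 2138 and 2252 at P21 against P13 (4977 and 972) and 3081 and 3004 at P33 against P8 (4898 and 1762). For the 50 genes it gave 3 higher and 1 lower at P10 against P8, 0 and 20 at P13 against P10, 2 higher at P21 against P13, and 5 and 10 in P33 lipochondrocytes against adipocytes. Scaling to an equal sum gave 3119 higher at P21 against P13, 250 higher at P33 against P21, 2889 and 2828 at P33 against P8, and 0 of the 50 higher at P13 against P10. Fits with only the groups compared gave 161 and 190 at P10 against P8, 228 and 119 at P13 against P8 and 28 and 98 at P33 against P21, and for the 50 genes 0 and 1, then 3 lower at P13 against P8, and 0 higher at P13 against P10. Lipochondrocyte libraries alone gave 765 lower among all genes and 1 of the 50 lower at P10 against P8, 0 higher at P13 against P10 and 2 lower at P13 against P8. Without a filter, 746 genes and 1 of the 50 were lower at P10 against P8, 0 higher at P13 against P10 and 3 lower at P13 against P8; a filter at 0.5 FPKM left 0 higher at P13 against P10. A pseudocount of 0.1 gave 262 higher among all genes and 2 of the 50 lower at P33 against P21, and 0.5 gave 1 lower.

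The median log2 level of the replication list differed by -1.14 at P21 against P13, and by -1.58 with a pseudocount of 0.1, -1.35 with 0.5, -1.44 with median-of-ratios scaling and -1.27 with equal sums. That of the mitosis list differed by -1.22, and by -2.43, -1.66 and -1.42 under the first 3 of these; in P33 lipochondrocytes against adipocytes it differed by -0.23, and by -0.77, -0.37 and -0.12.

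Leaving out 1 library at a time gave 328 to 1269 lower at P10 against P8, 1507 to 2381 higher at P13 against P10, 221 to 334 higher and 116 to 175 lower at P13 against P8 and 241 to 659 higher at P33 against P21 among all genes. For the 50 genes it gave 1 to 2 lower at P10 against P8, 0 to 2 higher at P13 against P10, 1 to 4 lower at P13 against P8 and 0 to 1 higher and 0 to 1 lower at P33 against P21. Among all genes at P10 against P8, the lower calls dropped past 1.5 times without P10 replicate 1 or 2 or P8 replicate 2 or 3. For the 50 at P13 against P8 they did so without P8 replicate 3 (1 lower) and without P13 replicate 1 or 3.

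The replicate numbers did not pair the libraries: the 3 same-numbered correlations were all over 0.1 in none of the 7 comparisons (lowest -0.17, highest 0.21). With the numbers as a replicate block, the 50 genes had higher and lower calls of 1 and 2 at P10 against P8, 1 and 7 at P13 against P10, 1 and 6 at P13 against P8, 5 and 33 at P21 against P13, 0 and 0 at P33 against P21, 2 and 35 at P33 against P8 and 3 and 19 in P33 lipochondrocytes against adipocytes. It changed 6 of 315 calls of single genes of the 50.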
